A study of Mus musculus with 2 samples.

Results

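The extracellular matrix genes measured here are the collagens, the laminins and 14 single genes for adhesive glycoproteins, proteoglycans, nidogens, matrix proteases and their inhibitors. Members were taken by symbol: every row of the count table that starts like a collagen alpha chain (45 rows) or a laminin alpha, beta or gamma chain (11 rows), and Fn1, Sparc, Bgn, Dcn, Lum, Hspg2, Nid1, Nid2, Ltbp4, Timp1, Timp2, Timp3, Mmp2 and Mmp14. This gave 70 of 31053 genes. One of them, Col4a3bp, bears a collagen-like name and encodes the ceramide transfer protein Cert1, but it meets the rule and is counted among the members throughout.

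Single-cell RNA-seq was carried out on cells perfused from mouse liver and labelled as hepatocytes, with 1 library for each of 2 genotypes on a C57BL/6 background. Both mice carried LaptTA, a tetracycline transactivator driven by the liver-specific LAP promoter, which is held off by doxycycline in the food. The control mouse was otherwise wild type (LaptTA;WT), and the other mouse also carried tetYAP, a tetracycline-dependent transgene for active YAP, and had expressed it for 4 weeks (tetYAP 4W). With 1 library per genotype no difference below has a replicate check, so intervals are 95% intervals that cover counting error only, and the comparison asks how the 2 libraries differ. The transgenic line is named for the Col1a1 locus in the study's methods, and whether the insertion touches the Col1a1 count was not tested. The control library held 3 UMIs of Xist and 716 UMIs of 4 Y-linked genes, against 4859 and 0 in tetYAP 4W, so that genotype and sex cannot be told apart.

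In the liver, hepatocytes face the blood across a thin matrix in the space of Disse that lacks the dense basement membrane of other epithelia. Sinusoidal endothelial cells and hepatic stellate cells are its main makers of type IV collagen, laminin and perlecan, while hepatocytes secrete fibronectin and the endostatin-bearing collagen XVIII. Fibrillar collagens and small leucine-rich proteoglycans belong to stellate cells and portal fibroblasts, and accumulate in fibrosis. Laminins and type IV collagen form 2 separate networks that nidogens and perlecan link, and metalloproteases and their inhibitors set the turnover of both.

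The control library held 2989 barcodes with a median of 3117 UMIs (unique molecular identifiers, 1 for each captured transcript) and tetYAP 4W held 1524 barcodes with a median of 4150. No barcode occurred in both libraries. Mitochondrial transcripts made up a median of 28.1% and 37.7% of a barcode's UMIs. Transcripts of hepatocytes were present in every kind of barcode. RNA of other cells in a barcode is called free RNA below. Whether it was free or came from doublets (barcodes with more than 1 cell) was not tested. Even in lymphoid and erythroid barcodes the 12 hepatocyte markers summed to 86222 CPM (UMIs scaled to a common library total) for control and 72411 CPM for tetYAP 4W, beside 114560 and 95006 CPM in the unnamed barcodes described next. Clusters were named "-like" from markers of other cell types only, and the rest, in which all 12 hepatocyte markers were detected, were left unnamed (2537 control and 825 tetYAP 4W barcodes). The unnamed barcodes are those in which perfused hepatocytes are to be looked for, but cluster 3 of them led with pancreatic enzyme genes (Pnlip, Prss2, Ctrb1) and cluster 4 with platelet genes (Ppbp, Pf4, Gp9), and each of the unnamed clusters came from 1 library. Barcodes of T, NK, B and erythroid cells, which should lack most matrix transcripts, served as the reference for free RNA (23 in the control, 223 in tetYAP 4W).

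The promoters of Col4a1 and Col4a2, the genes for the chains of the common type IV collagen, are shown because the counts of both chains moved together (below) and because both genes start in the same stretch of chromosome 8 and run apart from it. The starts taken for the windows, 11312826 for Col4a1 and 11312805 for Col4a2, lie 21 bases apart in the GRCm38.p6 annotation of RefSeq. This is the assembly behind the mm10 coordinates used here. The Col4a1 gene span given below reaches further, to 11312889, so the 21 bases hold for these starts only. The windows reach from 250 bases before to 50 bases after each start, Col4a1 at chr8:11312777-11313076 on the minus strand and Col4a2 at chr8:11312555-11312854 on the plus strand. Capitals mark the 78 bases that both windows hold, read on opposite strands.
Col4a1: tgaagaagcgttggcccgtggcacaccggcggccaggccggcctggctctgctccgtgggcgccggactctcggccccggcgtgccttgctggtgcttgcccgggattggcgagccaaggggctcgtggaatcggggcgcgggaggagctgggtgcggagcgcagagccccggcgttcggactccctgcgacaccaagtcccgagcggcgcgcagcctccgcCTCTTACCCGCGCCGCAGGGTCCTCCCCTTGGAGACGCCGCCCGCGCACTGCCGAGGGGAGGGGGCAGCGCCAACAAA
Col4a2: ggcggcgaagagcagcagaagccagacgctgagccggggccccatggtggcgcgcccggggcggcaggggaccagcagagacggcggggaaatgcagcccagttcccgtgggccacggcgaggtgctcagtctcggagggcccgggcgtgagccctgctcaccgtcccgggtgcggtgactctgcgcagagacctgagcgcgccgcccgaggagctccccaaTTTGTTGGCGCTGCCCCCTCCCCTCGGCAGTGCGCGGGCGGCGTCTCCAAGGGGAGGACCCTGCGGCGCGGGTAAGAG

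Nidogen-1 is shown because its count differed most among the basement membrane linkers. TEAD factors, the DNA-binding partners of YAP, recognise the core motif CATTCC, and its promoter window at chr13:13437352-13437651 on the plus strand held the motif once, as GGAATG on the strand shown (in capitals).
Nid1: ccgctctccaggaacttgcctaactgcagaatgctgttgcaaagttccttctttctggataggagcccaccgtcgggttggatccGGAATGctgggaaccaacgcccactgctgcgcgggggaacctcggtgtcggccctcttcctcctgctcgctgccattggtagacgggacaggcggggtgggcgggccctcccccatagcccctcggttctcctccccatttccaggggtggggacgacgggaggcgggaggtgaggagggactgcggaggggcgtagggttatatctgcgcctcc

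Over both strands, CATTCC was present in 14.7% of 32851 RefSeq promoter windows of 300 bases and in 14.5% of the 55 windows that matched 49 of the members. The share among matrix genes was thus that of all promoters. The window of Lamb2, whose count differed most of all members, held no match, and the match in Nid1 is a description of these letters only.

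Over all barcodes, most matrix transcripts took a larger part of the tetYAP 4W library than of the control library. Member UMIs numbered 6872 in the control and 12978 in tetYAP 4W, which is 0.0723% and 0.191% of all UMIs. Fn1 and Col18a1 alone made up 74.3% of them in the control and 40.3% in tetYAP 4W. Without that pair the share went from 0.0186% (interval 0.0177 to 0.0195) to 0.114% (0.112 to 0.117). Of the 70 members, 14 had no UMI in either library, 15 had 1 to 9 UMIs over both, and 41 had 10 or more and were compared. A member was called where its CPM (UMIs scaled to the total of the library) differed by 2-fold or more and the interval excluded no change. By this rule 32 of 41 were higher in tetYAP 4W, where 36.7% of all 12621 genes compared were, and 1 was lower, where 7.26% of all genes were. The median log2 ratio of the 41 was 2.58, beside 0.60 for all genes. Scaling by TMM factors moved the median of all genes to 0.04 and that of the members to 2.02, with 30 members higher and 2 lower. Of all 12621 genes, 3174 were higher and 2215 lower with these factors. These sums mix a change of cell makeup with a change of RNA per cell, which cannot be told apart in them.

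**Figure D1:**
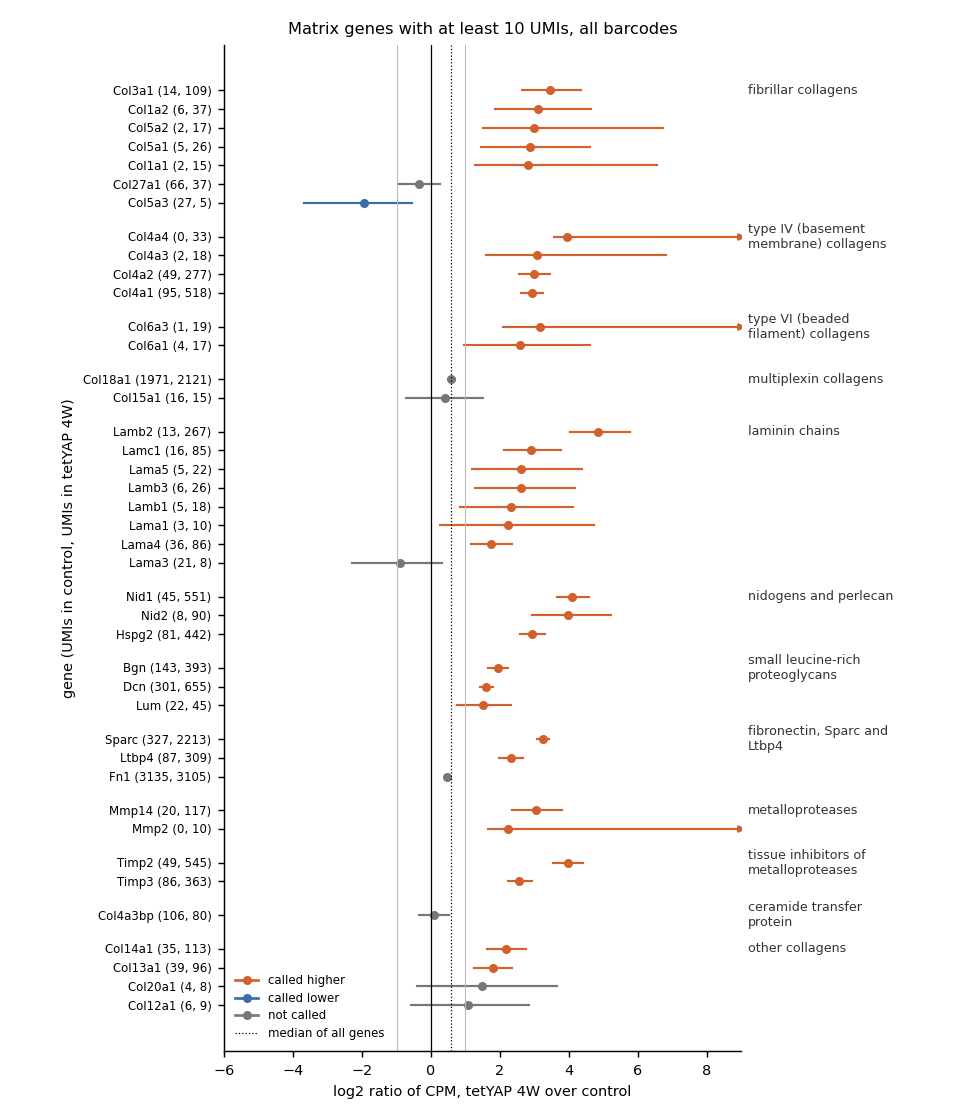
Log2 ratio of CPM of tetYAP 4W over control for the 41 matrix genes with at least 10 UMIs, grouped by role, with the UMIs of both libraries in brackets. Points are ratios, bars 95% counting intervals (arrows run past the axis where the control had 0 or 1 UMI), grey lines mark 2-fold and the dotted line the median of all genes. Lamb2, Nid1, Nid2 and Timp2 lie farthest to the right, at 4.85, 4.10, 3.98 and 3.96, while Fn1 (0.47) and Col18a1 (0.59) lie inside the 2-fold lines.

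Type IV collagen, the sheet-forming collagen of basement membranes, was called higher in all 4 of its counted genes, beside 36.7% of all genes. Col4a1 (chr8:11198423-11312889) was counted 95 times in the control and 518 times in tetYAP 4W, a log2 ratio of 2.94 (2.62 to 3.27). Col4a2 had 49 and 277 UMIs, a log2 ratio of 2.99 (2.55 to 3.46). The chains thus kept their proportion: Col4a1 made up 66.0% (57.6 to 73.7) of the UMIs of the pair in the control and 65.2% (61.7 to 68.5) in tetYAP 4W. Col4a3 and Col4a4, the chains known from the kidney glomerulus, also form a head-to-head gene pair and were close to absent from the control, with 2 and 0 UMIs against 18 and 33. Col4a4 was at least 11.9-fold higher by the lower bound of its counting interval (15.4-fold against a floor of 3 UMIs), and 21 of its 33 UMIs lay in unnamed barcodes. Col4a5 had 0 and 6 UMIs and Col4a6 none.

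Among laminins, the cross-shaped trimers that nucleate a basement membrane, 7 of 8 counted chains were higher, beside 36.7% of all genes. Lamb2 (chr9:108479847-108490530), the beta-2 chain, stood out with 13 UMIs in the control and 267 in tetYAP 4W, 28.8-fold (16.6 to 54.8) higher. Lamb1, the beta-1 chain, had only 5 and 18 UMIs, so that Lamb2 made up 72.2% (46.5 to 90.3) of the UMIs of the beta-1 and beta-2 chains in the control and 93.7% (90.2 to 96.2) in tetYAP 4W. The intervals of these shares overlap at their edge. The gamma-1 chain Lamc1, which most laminin trimers share, had 16 and 85 UMIs (log2 ratio 2.90, 2.12 to 3.77). Lama4, the alpha chain of vessel walls, had 36 and 86 (1.75, 1.17 to 2.35), while Lama5 had 5 and 22 and Lama1 3 and 10. Lama3 was the exception with 21 and 8 UMIs (-0.90, -2.29 to 0.33), and was not called.

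All 3 linkers of the laminin and collagen networks were called higher, beside 36.7% of all genes. Nid1 (chr13:13437602-13512275) went from 45 to 551 UMIs, 17.2-fold (12.7 to 23.8) more. Nid2 had 8 and 90 UMIs, a log2 ratio of 3.98 (2.94 to 5.24). Hspg2 (perlecan), a heparan sulphate proteoglycan, had 81 and 442 UMIs, a log2 ratio of 2.94 (2.59 to 3.30).

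Fibrillar collagens, the tension-bearing fibres of scar tissue, were rare in both libraries. Col3a1 was the most counted of the classical ones, with 14 UMIs in the control and 109 in tetYAP 4W (log2 ratio 3.45, 2.64 to 4.37). Col1a1 had 2 and 15 UMIs and Col1a2 had 6 and 37, with log2 ratios of 2.81 (1.29 to 6.57) and 3.11 (1.86 to 4.65). Col5a1 and Col5a2, which set fibre diameter, had 5 and 26, and 2 and 17 UMIs. Col5a3 was the only member called lower, with 27 and 5 UMIs (-1.94, -3.68 to -0.55), and Col27a1 had 66 and 37 (-0.35, -0.97 to 0.26). Of 7 counted fibrillar genes 5 were thus called higher, beside 36.7% of all genes. These 5 rested on 123 or fewer UMIs each over both libraries. Of the beaded-filament collagens, Col6a1 had 4 and 17 UMIs and Col6a3 had 1 and 19, both called higher, and Col6a2 had 2 and 5.

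All 3 small leucine-rich proteoglycans, which bind collagen fibres, were called higher, beside 36.7% of all genes. Dcn had 301 UMIs in the control and 655 in tetYAP 4W (log2 ratio 1.61, 1.41 to 1.81). Bgn had 143 and 393 (1.95, 1.67 to 2.23) and Lum 22 and 45 (1.52, 0.75 to 2.33). In the control Dcn followed Fn1, Col18a1 and Sparc as the fourth most counted member. Col14a1, a fibre-associated collagen, had 35 and 113 UMIs (2.18, 1.62 to 2.77), and Col13a1, a transmembrane collagen, 39 and 96 (1.79, 1.24 to 2.36).

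Sparc, a calcium-binding protein that carries collagen IV out of the cell, contributed the most UMIs of the members called higher. It was counted 327 times in the control and 2213 times in tetYAP 4W, 9.50-fold (8.45 to 10.7) higher. Ltbp4, which tethers latent TGF-beta to the matrix, had 87 and 309 UMIs (log2 ratio 2.32, 1.97 to 2.68). Timp2 had 49 and 545 UMIs (3.96, 3.54 to 4.42) and Timp3, the inhibitor that stays bound to the matrix, 86 and 363 (2.57, 2.22 to 2.92). Timp1, the inhibitor known from fibrosis, had 1 and 3 UMIs and was not compared. Of the proteases, Mmp14, the membrane-bound activator of Mmp2, had 20 and 117 UMIs (3.04, 2.35 to 3.80), and Mmp2 itself had 0 and 10, at least 3.15-fold higher by the same bound (4.68-fold against the floor).

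Fn1 and Col18a1, the members of highest count, were among the 8 counted members not called. Fn1 had 3135 UMIs in the control and 3105 in tetYAP 4W, a log2 ratio of 0.47 (0.40 to 0.55). Col18a1 had 1971 and 2121, a ratio of 0.59 (0.50 to 0.68). Both intervals exclude no change, and both values lie near the median of all genes. Col15a1, the relative of Col18a1, had 16 and 15 UMIs, and Col4a3bp, the ceramide transfer protein, 106 and 80 (0.08, -0.35 to 0.52). The remaining members not called, the rare collagens Col20a1 and Col12a1, had 4 and 8, and 6 and 9 UMIs.

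The members were spread unevenly over the classes of barcode. Without Fn1 and Col18a1, endothelial-like barcodes held 42.9% (40.5 to 45.2) of the member UMIs in the control and 43.8% (42.7 to 44.9) in tetYAP 4W, from 6.98% and 11.1% of all UMIs. Stellate or mesenchymal-like barcodes held 14.9% (13.3 to 16.7) in the control, from 212 barcodes with 7.03% of all UMIs. In tetYAP 4W they held 9.93% (9.28 to 10.6), from 19 barcodes with 0.944% of all UMIs. Stellate or mesenchymal markers summed to 1.54 UMIs per barcode in the control class and 22.3 in that of tetYAP 4W. The shares of this class therefore do not compare like barcodes. Unnamed barcodes held 39.4% and 30.8%, below their 83.3% and 51.2% of all UMIs. Fn1 and Col18a1 were distributed unlike the others, with 85.1% (84.0 to 86.0) and 67.1% (65.8 to 68.3) of their UMIs in unnamed barcodes.

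**Figure D2:**
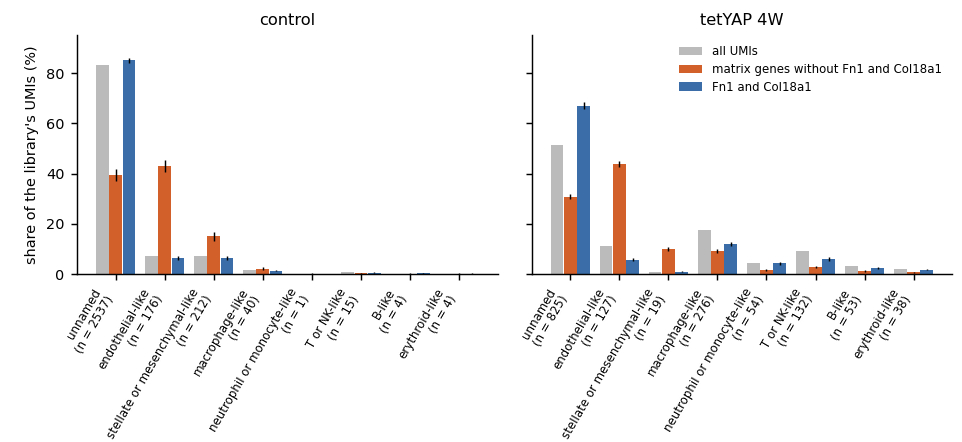
Share of a library's UMIs (%, linear axis) that lay in each class of barcode, for all genes (grey), matrix genes without Fn1 and Col18a1 (orange) and Fn1 with Col18a1 (blue). Error bars are exact 95% binomial intervals for counting error, and n is the number of barcodes. Endothelial-like barcodes held 42.9% and 43.8% of the matrix UMIs, while Fn1 and Col18a1 followed the unnamed barcodes.

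In the tetYAP 4W library, 37 members had 10 or more UMIs, and 17 of them had an interval in 1 class of barcode above those of all other classes. For 7 members this was the endothelial-like class, where 4.69% of all genes peaked in this way, for 9 the stellate or mesenchymal-like class (0.44%) and for 1 the unnamed class (0.338%). Endothelial-like barcodes were highest for Sparc (10.6 UMIs per barcode), Col4a1 (2.65), Hspg2 (2.20), Timp3 (2.06), Ltbp4 (1.52), Col13a1 (0.567) and Lama4 (0.433). Stellate or mesenchymal-like barcodes were highest for Dcn (15.3), Bgn (4.47), Col3a1 (3.11), Col14a1 (2.05), Lum (19 UMIs in 19 barcodes), Col1a2 (0.895), Col5a1 (0.579), Col6a3 (0.421) and Mmp2 (0.368). The separate peaks of Col6a3 and Mmp2 rested on a single barcode (below). The single member of the unnamed class was Col18a1 (1.85). Other basement membrane members had no separate peak: Col4a2, Nid1, Nid2, Lamb2 and Lama5 were highest in endothelial-like barcodes, Lamc1, Lamb1 and Lama1 in stellate or mesenchymal-like ones, Col4a3 and Lamb3 in T or NK-like ones and Col4a4 in neutrophil or monocyte-like ones, with intervals that overlapped those of another class. In the control, with 25 counted members, Sparc, Col4a1, Timp3 and Ltbp4 had separate peaks in endothelial-like barcodes (0.6% of all genes) and Dcn in stellate or mesenchymal-like barcodes (0.0286%). No member peaked separately in the unnamed (0%), macrophage-like (1.17%) or T or NK-like (1.5%) barcodes of the control, nor in the macrophage-like (0.719%), neutrophil or monocyte-like (1.61%), T or NK-like (1.08%), B-like (0.287%) or erythroid-like (0.127%) barcodes of tetYAP 4W.

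Set against the reference barcodes, the members that exceeded their level differed by class. In tetYAP 4W, the intervals of 19 of 37 members in endothelial-like barcodes lay above those of the reference, beside 27% of all genes. In stellate or mesenchymal-like barcodes 18 did, beside 2.03%, and in macrophage-like barcodes 4 did, beside 10.4%. The share in macrophages was thus that of the background. In unnamed barcodes 9 members did, beside 3.04% of all genes: Fn1, Col18a1, Lamb2, Nid1, Sparc, Hspg2, Col4a1, Timp3 and Ltbp4. In the control, 6 of 25 members did in endothelial-like barcodes (1.18% of all genes), 1, Dcn, in stellate or mesenchymal-like barcodes (0.0571%), 0 in unnamed barcodes (0.0286%) and 0 in macrophage-like barcodes (1.81%). The control reference is only 23 barcodes, so a member without a UMI there could still lie at up to 0.16 UMIs per barcode, and levels below this could not be told from free RNA. Levels were not scaled for depth. In tetYAP 4W, endothelial-like barcodes had a median of 6077 UMIs, beside 4774 in T or NK-like, 3867 in B-like and 3390 in erythroid-like ones. With each tetYAP 4W barcode thinned to 2000 UMIs, 12 members lay above the reference in endothelial-like barcodes. The share of all genes was not computed for this.

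**Figure D3:**
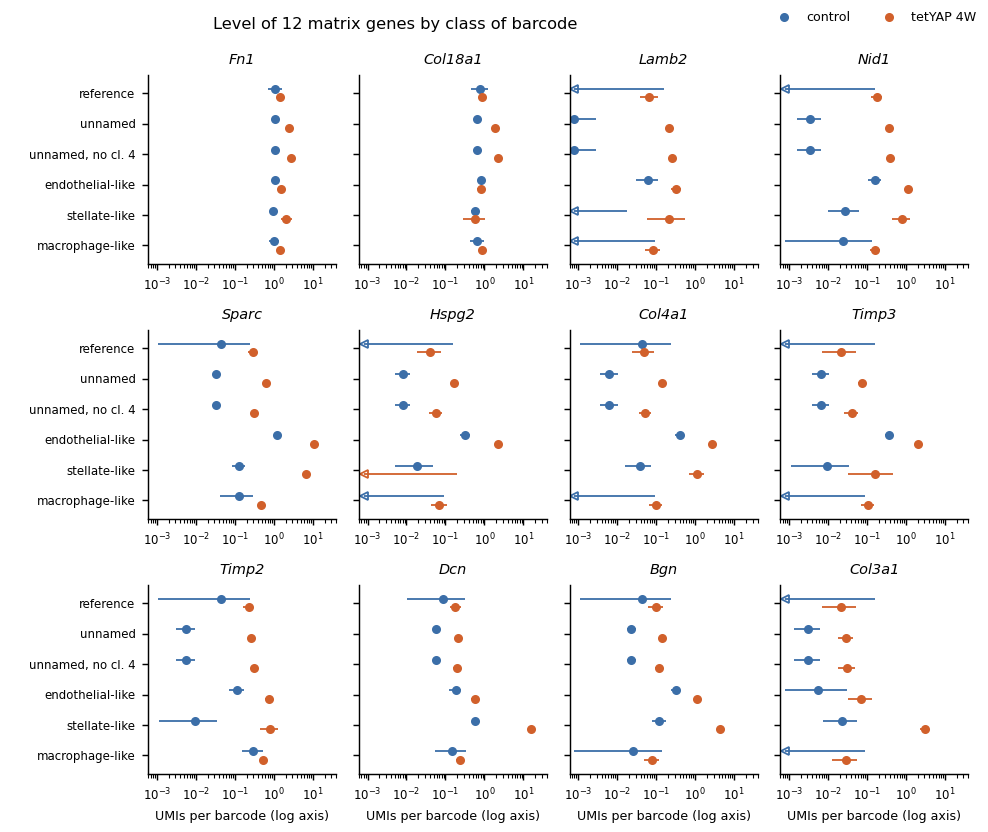
UMIs per barcode (log axis) of 12 matrix genes in the reference barcodes (T, NK, B and erythroid-like), in unnamed barcodes with and without cluster 4, and in 3 named classes, for control (blue) and tetYAP 4W (orange). Bars are exact 95% Poisson intervals and open triangles mark 0 UMIs. Lamb2 and Nid1 of tetYAP 4W lie to the right of their reference in unnamed barcodes also without cluster 4, while Sparc and Col4a1 do so only with it.

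Of the 9 members above the reference in unnamed barcodes, 5 rested on a single cluster. Cluster 4, with 258 of the 825 unnamed tetYAP 4W barcodes, held 360 of the 531 Sparc UMIs of this class, 101 of 133 for Hspg2 and 87 of 117 for Col4a1. The 16 endothelial markers of unnamed barcodes summed to 779 CPM with this cluster and 232 CPM without it, beside 114 CPM in the control, and their part in these values was not tested. Without cluster 4, a choice made after the data were seen, 4 members remained above the reference, beside 2.56% of all genes: Fn1, Col18a1, Lamb2 and Nid1. Sparc was then at 0.302 UMIs per barcode (0.26 to 0.35), beside 0.287 (0.22 to 0.37) in the reference.

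Lamb2 and Nid1 were the basement membrane members that stayed above the reference in unnamed barcodes without cluster 4. Lamb2 was at 0.249 UMIs per barcode (0.21 to 0.29) in unnamed tetYAP 4W barcodes without cluster 4, beside 0.0673 (0.038 to 0.11) in the reference and 0.331 (0.24 to 0.45) in endothelial-like barcodes. Unnamed barcodes held 67.8% of all Lamb2 UMIs of tetYAP 4W, and endothelial-like barcodes 15.7%. In the control the order of these shares was the opposite, with 2 of 13 Lamb2 UMIs in 2537 unnamed barcodes and 11 in 176 endothelial-like barcodes. Per barcode, Lamb2 was highest in endothelial-like barcodes in both libraries, with intervals that overlapped another class. Levels there and in unnamed barcodes were 0.0625 and 0.000788 in the control, and 0.331 and 0.219 in tetYAP 4W. Nid1 was at 0.40 UMIs per barcode (0.35 to 0.46) in unnamed tetYAP 4W barcodes without cluster 4, beside 0.184 (0.13 to 0.25) in the reference and 1.12 (0.94 to 1.3) in endothelial-like barcodes. Control unnamed barcodes held 9 UMIs of Nid1, or 0.00355 per barcode. Both genes were above the reference in cluster 3, the largest unnamed cluster of tetYAP 4W (488 barcodes), at 0.266 for Lamb2 and 0.420 for Nid1. That cluster had a median of 60.8% mitochondrial UMIs, and the part of this in the result was not tested. In cluster 12, the only other unnamed cluster of tetYAP 4W, the values were 0.139 and 0.278, and their intervals overlapped those of the reference.

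Fn1 and Col18a1 were above the reference in clusters 3 and 12. In tetYAP 4W, Fn1 was at 2.70 UMIs per barcode in cluster 3 and 3.29 in cluster 12, beside 1.46 (1.3 to 1.6) in the reference, while cluster 4 (1.56) overlapped it. Col18a1 was at 2.27 and 1.85 in clusters 3 and 12, beside 0.879 (0.76 to 1.0). In the control, by contrast, Fn1 was at 1.05 (1.0 to 1.1) in unnamed barcodes and 1.09 (0.70 to 1.6) in the reference, and Col18a1 at 0.658 (0.63 to 0.69) and 0.783 (0.46 to 1.2), so that neither was distinguishable from free RNA there. Fn1 was also high in the neutrophil or monocyte-like barcodes of tetYAP 4W, at 3.22 UMIs per barcode (2.8 to 3.7) over 54 barcodes, the only class outside the unnamed one above the reference.

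Comparing libraries within unnamed barcodes, 25 of 33 counted members were called higher and 1 lower in tetYAP 4W, where 17.7% of all genes were higher and 12.8% lower. The median log2 ratio of the members was 2.96, beside -0.09 for all genes. Other measures differed with them: macrophage markers were at 86.7 and 885 CPM, stellate or mesenchymal markers at 46.7 and 163 CPM, and the median mitochondrial share at 28.2% and 55.4%, and their part in the result was not tested. The highest were Lamb2, with 2 UMIs in the control and 181 in tetYAP 4W (7.11, 5.82 to 10.75), Nid1 with 9 and 299 (6.25, 5.30 to 7.39), and Timp2 with 14 and 219 (5.16, 4.38 to 6.05). Sparc had 85 and 531 UMIs (3.83, 3.50 to 4.18). Col18a1 had 1669 and 1527 (1.06, 0.96 to 1.16) and was called, and Fn1 had 2674 and 1978 (0.76, 0.67 to 0.84) and was not. Col27a1 was the member called lower, with 57 and 8 UMIs (-1.64, -2.92 to -0.57). In barcodes with at most 30% mitochondrial UMIs, 14 of 20 counted members were higher and 0 lower, beside 31.9% and 1.45% of all genes. With this filter, macrophage markers summed to 91.3 CPM for control and 1220 CPM for tetYAP 4W. Endothelial markers were at 116 and 1019 CPM (114 and 779 unfiltered), and stellate or mesenchymal markers at 47.7 and 211 CPM. Each of these tetYAP 4W sums was above its unfiltered value, and their part in the filtered counts was not tested. The ratios within unnamed barcodes may hold free RNA as well as the cells' own: Timp2, for example, was at 0.265 UMIs per barcode in unnamed tetYAP 4W barcodes and 0.224 in the reference.

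Without cluster 4, 24 of 31 counted members were higher and 2, Col27a1 and Col4a3bp, were lower, where 12.9% of all genes were higher and 22.4% lower. Lamb2 (7.20, 5.90 to 10.84), Nid1 (6.30, 5.35 to 7.45) and Timp2 (5.32, 4.53 to 6.22) kept their place, Sparc went down to 2.65 (2.27 to 3.04) and Hspg2 from 3.85 to 2.25. Clusters 7 (control, 166 barcodes) and 12 (tetYAP 4W, 79 barcodes) shared leading genes such as Mlxipl, Echdc2 and Peg3, and between them 6 of 11 counted members were higher and Col27a1 was lower (17.1% and 9.52% of all genes). Macrophage markers, at 108 and 1021 CPM, and stellate or mesenchymal markers, at 63.0 and 189 CPM, differed too, and their part was not tested. Nid1 had 0 and 22 UMIs there and Lamb2 0 and 11, while Fn1 had 296 and 260 (0.58, 0.33 to 0.82).

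**Figure D4:**
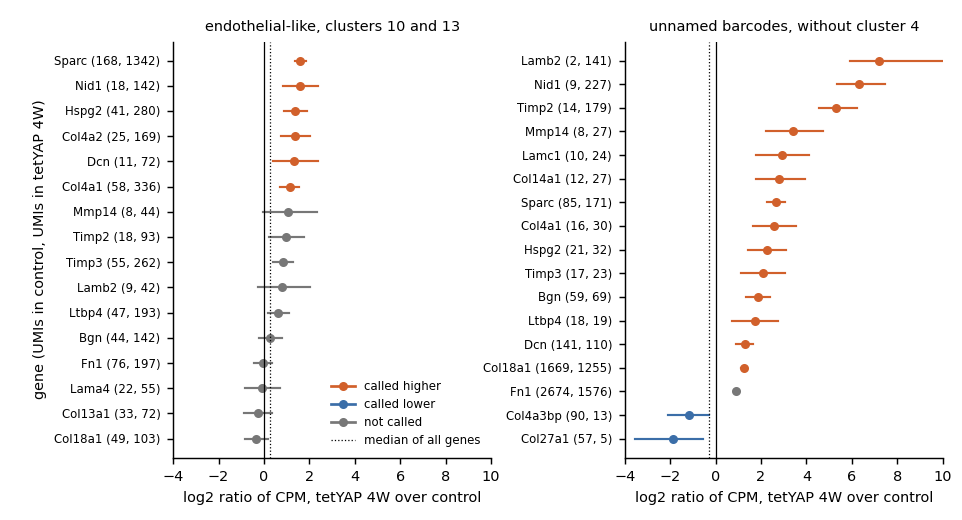
Log2 ratio of CPM of tetYAP 4W over control within endothelial-like clusters 10 and 13 (left) and within unnamed barcodes without cluster 4 (right), for matrix genes with at least 30 UMIs in the comparison. Points are ratios, bars 95% counting intervals, brackets give UMIs in control and tetYAP 4W, and dotted lines mark the median of all genes. Sparc, Nid1 and Hspg2 lead on the left at 1.59, 1.57 and 1.36, and Lamb2 and Nid1 on the right at 7.20 and 6.30.

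Within endothelial-like barcodes (176 and 127), 16 of 24 counted members were called higher and 0 lower, where 30.1% of all genes were higher and 6.82% lower. This count depended on which control barcodes were taken as endothelial. Cluster 11 held 116 of the 176 control barcodes and passed the naming rule for 8 of the 16 endothelial markers, against 16 in clusters 10 and 13. Over the whole class the 16 markers summed to 5712 CPM in the control and to 15340 CPM for tetYAP 4W. Macrophage markers in this class also differed, at 193 and 868 CPM, and their part in the result was not tested. With clusters 10 and 13 alone (60 and 127 barcodes, chosen after the data were seen) the markers were at 11373 and 15340 CPM. Here the control had 4 barcodes in cluster 10 and 56 in cluster 13, and tetYAP 4W 125 and 2, so that library and cluster nearly coincide. Macrophage markers were at 287 and 868 CPM and hepatocyte markers at 79449 and 51471 CPM in these clusters, and their part was not tested either. There, 6 of 23 members were higher and 0 lower, beside 8.87% and 5.19% of all genes. These were Sparc with 168 and 1342 UMIs (1.59, 1.35 to 1.83), Nid1 with 18 and 142 (1.57, 0.86 to 2.36), Hspg2 with 41 and 280 (1.36, 0.88 to 1.87), Col4a2 with 25 and 169 (1.35, 0.73 to 2.01), Dcn with 11 and 72 (1.30, 0.38 to 2.36) and Col4a1 with 58 and 336 (1.12, 0.72 to 1.55). The median of the 23 was 0.81, beside 0.28 for all genes. Timp3 (0.84, 0.42 to 1.29), Ltbp4 (0.63, 0.16 to 1.12) and Timp2 (0.96, 0.22 to 1.77) did not reach 2-fold, though their intervals excluded no change. Intervals of Lama4 (-0.09, -0.83 to 0.70), Col13a1 (-0.29, -0.90 to 0.36), Bgn (0.28, -0.22 to 0.80) and Fn1 (-0.04, -0.43 to 0.36) included it. With barcodes of at most 30% mitochondrial UMIs, 12 of 21 counted members of the whole class were higher and 1, Col18a1, was lower (24.3% and 6.75% of all genes). Among endothelial basement membrane genes in clusters 10 and 13, Col4a1, Col4a2, perlecan and Nid1 were thus called higher. Lamc1 (1.65, -0.06 to 4.02), Nid2 (1.59, -0.13 to 3.96) and Lamb2 (0.81, -0.25 to 2.04) were not, from 3, 3 and 9 control UMIs.

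Macrophage-like barcodes (40 and 276) showed 1 of 18 counted members higher and 0 lower, where 2.59% and 5.23% of all genes were. This was Sparc, with 5 and 133 UMIs (1.71, 0.45 to 3.36). Of the 90 Nid2 UMIs of tetYAP 4W, 44 came from the 276 barcodes of the macrophage-like class and 24 from the 127 of the endothelial-like class. The levels of 0.159 (0.12 to 0.21) and 0.189 (0.12 to 0.28) UMIs per barcode overlapped, beside 0.00897 (0.0011 to 0.032) in the reference. Nid1 made up 51.1% (40.3 to 61.8) of the UMIs of both nidogens in macrophage-like barcodes, 85.5% (79.3 to 90.5) in endothelial-like and 94.6% (91.5 to 96.8) in unnamed ones. In the control, the 40 macrophage-like barcodes held 0 UMIs of Nid2, which allows up to 0.092 per barcode. Timp2 was also above the reference in tetYAP 4W macrophage-like barcodes (0.533, 0.45 to 0.63, beside 0.224, 0.17 to 0.30), as was Timp3 (0.105, 0.070 to 0.15, beside 0.0224, 0.0073 to 0.052).

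Stellate or mesenchymal-like barcodes could not be compared by ratio, since tetYAP 4W held 19. The control class was 211 barcodes of cluster 5, weak in markers, and 1 of cluster 17, while tetYAP 4W had all its 19 in cluster 17. The summed 16 markers were at 1.54 UMIs per barcode in the control and 22.3 in tetYAP 4W. Dcn was found in all 19 tetYAP 4W barcodes, with 1 to 105 UMIs and a median of 6, and in 37 of 212 control barcodes, with at most 36. A single barcode held 36.2% of the Dcn UMIs of the 19, and without it the level went from 15.3 to 10.3 UMIs per barcode (8.85 to 11.9). The same barcode held 212 of the 821 member UMIs of this class. Without it Col6a3 went from 0.421 to 0.333 (0.12 to 0.73) and Mmp2 from 0.368 to 0.167 (0.034 to 0.49). Neither peak then stayed separate. The lower bound fell below the upper bound of neutrophil or monocyte-like barcodes for Col6a3 and of erythroid-like barcodes for Mmp2. Col3a1 was found in 11 of the 19, with a highest value of 14, and in 4 of 212 control barcodes. Bgn was found in 15 of 19, Col14a1 in 15, Col1a2 in 8, Lum in 7, Mmp2 in 4 and Col1a1 in 2. The 12 macrophage markers summed to 4.21 UMIs per barcode in these 19 and the 16 endothelial markers to 2.47. Markers of portal fibroblasts and mesothelium summed to 0.211 UMIs per barcode in these 19, beside 0.372 in the reference. The reference classes differed, with 0.621 in T or NK-like, 0.0189 in B-like and 0 in erythroid-like barcodes. Unnamed tetYAP 4W barcodes were at 0.0133. Of the portal and mesothelial marker UMIs of the 19, 3 lay in the barcode with the most Dcn.

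**Figure D5:**
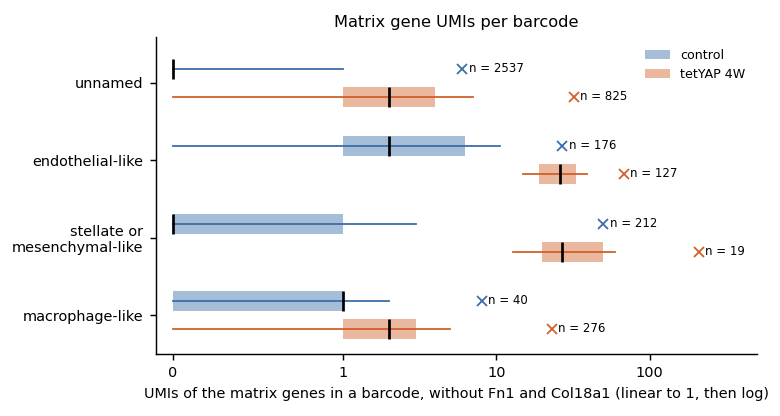
UMIs of the matrix genes in a barcode, without Fn1 and Col18a1, by class of barcode (axis linear to 1, then log). Ticks mark medians, boxes the 25th to 75th percentile, lines the 10th to 90th percentile and crosses the highest barcode, with n barcodes. Endothelial-like and stellate or mesenchymal-like barcodes of tetYAP 4W have medians of 26 and 27 UMIs, against 2 and 0 in the control. The control classes were weaker in their own markers. Median marker UMIs per barcode were 6 against 92 in the endothelial-like class and 1 against 18 in the stellate or mesenchymal-like class. The medians therefore do not compare like barcodes.

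Lamb3, the beta-3 chain of epithelial laminin-332, was an exception to the reference lacking matrix transcripts. It had 6 UMIs in the control and 26 in tetYAP 4W. Of the latter, 22 lay in reference barcodes, 16 of them in T or NK-like ones at 0.121 UMIs per barcode (0.069 to 0.20), and 1 in unnamed ones. Lamb3 was therefore below the reference in unnamed, endothelial-like and macrophage-like barcodes.

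Other genes that make, cut or sense the matrix were counted from 5 further lists over all barcodes, where 36.7% of all genes were called higher and 7.26% lower, with a median of 0.60. The share of macrophage-like barcodes was 1.34% for control and 18.1% for tetYAP 4W, that of neutrophil or monocyte-like ones 0.033% and 3.54%, and the part of this in the lists' counts was not tested. Of 20 counted collagen processing genes, 16 were called higher and 0 lower (median 2.29). They were led by Pcolce, a procollagen protease enhancer (17 and 481 UMIs, 5.31), and Pcolce2 (14 and 128, 3.68), with P3h1 (1.47) and Colgalt1 (1.88) the lowest called. The prolyl hydroxylase subunit P4hb, which also serves general protein folding, was not called (0.04, -0.05 to 0.12), and was picked for mention after its value was seen, as was Vtn below. Of 21 counted matrix receptors, 17 were higher and 1 lower (median 2.31). Cd44, the hyaluronan receptor, had 48 and 764 UMIs (4.48, 4.06 to 4.93), Sdc3 191 and 1730 (3.67, 3.45 to 3.89), and Dag1 (1.14) was the lowest of those higher. Sdc4, a cell-surface heparan sulphate proteoglycan, was lower with 1779 and 595 (-1.09, -1.23 to -0.96). Of 19 counted TGF-beta pathway genes, 17 were higher and 0 lower (median 1.90), from Tgfb1 (83 and 619 UMIs, 3.39) and Acvrl1 (2.96) down to Smad3 (1.23) and Tgfbr1 (1.16). Of 13 counted other proteases and inhibitors, 10 were higher and 0 lower (median 2.86), with Mmp9 at 1 and 192 UMIs (6.49, 5.58 to 13.38) and Adamts5 at 3 and 57 (4.74, 3.12 to 7.06), and Adam10 (1.76) and Adam17 (1.58) the lowest called. Of 13 counted other matrix proteins, 11 were higher and 0 lower (median 2.31), led by Ogn (3.62) and Efemp2 (3.38), with Efemp1 (2.07) and Postn (1.98) lowest. Vitronectin (Vtn), a plasma protein from hepatocytes with 13335 and 11300 UMIs, was not called (0.25, 0.21 to 0.29).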

How the data were processed

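Droplet 3' single-cell RNA-seq had been run on 1 control and 1 tetYAP 4W library. The files hold raw UMI counts per gene and barcode as deposited by the authors, made with Cell Ranger and Seurat 3 on mm10 per the submitters' processing notes. The methods state that cells above 7500 UMIs were removed and 3000 cells per condition were kept by down-sampling. The files held 2989 barcodes (516 to 7277 UMIs) and 1524 barcodes (2355 to 7493 UMIs), and all were used. No doublet caller was run. Other columns of per-sample values numbered 0.

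Barcodes were clustered with scanpy 1.11.5 (Python 3.11.15) on 2000 variable genes without the matrix members, 20 principal components and 15 neighbours (Leiden method, resolution 0.8). Names were given to clusters from at least 3 markers with 10 or more UMIs and a 3-fold excess over other barcodes, and the rest stayed unnamed. Names rebuilt in this way may differ from the study's.

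UMIs were summed per library and class, scaled to the class or library total, and compared as log2 ratios for genes with at least 10 UMIs, with a floor of 3 UMIs per library where either count was lower. Intervals are 95% (conditional binomial for ratios, exact Poisson for levels, Clopper-Pearson for shares) and cover counting error only. With 1 library per group no test was run. Within a class, a ratio needed at least 20 barcodes in each library. edgeR 4.0.16 (R 4.3.3) gave TMM factors only. On counts simulated as Poisson draws per library, the interval held the true value for 96% of changed genes over all barcodes (12621 genes run). It did so for 94.5% in endothelial-like (8762) and 95.5% in unnamed barcodes (10955). The interval assumes such draws, so this checks the code only. Clumping of UMIs in single barcodes was not simulated.

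Named genes were the members with at least 100 UMIs, those called, and Col1a1, Col1a2, Col3a1, Lamb1, Lamc1, Timp1, Mmp2, Mmp14 and Lum, and of the other lists the 2 highest and 2 lowest called genes with at least 30 UMIs. Members and lists were chosen with earlier results of these data known. Promoters came from RefSeq (GRCm38.p6), with 49 of 70 members matched. A genome of an older mouse build was not used. Alternatives were other scalings, filters, clusterings and class definitions, and, chosen after seeing the data, endothelial clusters 10 and 13 alone, unnamed barcodes without cluster 4 or of clusters 7 and 12 alone, and the stellate-like class without its top Dcn barcode.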

Additional observations from a re-analysis of the deposited data

Results flagged for a closer look

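In both of the following genes the ratio of tetYAP 4W over control had opposite signs in 2 classes of barcode, with intervals that exclude no change in each. The difference between the classes was not tested, since each library is a single sample. Col18a1, which carries the endostatin fragment, had a log2 ratio of 1.06 (0.96 to 1.16) in unnamed barcodes and of -0.62 (-1.0 to -0.24) in endothelial-like barcodes. In endothelial-like clusters 10 and 13 alone the latter was -0.34 (-0.84 to 0.18), an interval that includes no change. Col18a1 was not above the reference in endothelial-like barcodes of either library. The median UMIs of these barcodes were 3501 in the control and 6077 in tetYAP 4W. Hepatocyte markers in them were at 95801 and 51471 CPM, and the part of depth and of this RNA in the ratio was not tested. Col27a1, a fibrillar collagen chain of cartilage, had 1.94 (0.07 to 4.39) in endothelial-like barcodes, from 3 and 13 UMIs, and -1.64 (-2.92 to -0.57) in unnamed barcodes, from 57 and 8 UMIs. The sign in unnamed barcodes turned to 0.55 with at most 30% mitochondrial UMIs, and endothelial-like clusters 10 and 13 alone gave 0.70, not called, from 0 and 13 UMIs.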

How the results depend on the processing

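No paired analysis was possible because each group is 1 library, and leaving out a replicate was not possible for the same reason. Over all barcodes, 1 member was called lower, against 2 with TMM factors and 0 in barcodes with at most 30% mitochondrial UMIs, after thinning to 2000 UMIs, with a minimum of 50 UMIs, or with the whole interval past 2-fold. Of all 12621 genes 916 were lower, against 2215 of the same genes with TMM factors. With at most 30% mitochondrial UMIs 682 were lower and after thinning 772, each out of another number of genes. Where no value for all genes stands beside a count below, it was not computed, and the members counted differed between settings. The minimum of 50 UMIs left 19 members called higher, against 32, since fewer members were counted. In endothelial-like barcodes the count called higher was 16 of 24 (30.1% of all genes), and 6 of 23 (8.87%) in clusters 10 and 13 alone. It was also 6 at Leiden resolution 0.4 or with the members among the clustering genes. In unnamed barcodes the count was 25 of 33 (17.7% of all genes). It was 14 with at most 30% mitochondrial UMIs (31.9%) and 6 of 11 in clusters 7 and 12 alone (17.1%). In macrophage-like barcodes it was 1 of 18 (2.59% of all genes), and 2 without clusters and 0 with at most 30% mitochondrial UMIs. The share of member UMIs in control endothelial-like barcodes (15.8%) was 10.3% at resolution 0.4 and with members clustered, and 19.9% with at most 30% mitochondrial UMIs. The share in control unnamed barcodes (73.3%) was 79.1% at resolution 0.4, 70.2% at 1.2, 77.4% with members clustered, 79.2% without clusters and 68.8% with at most 30% mitochondrial UMIs. In tetYAP 4W the endothelial-like share (28.5%) was 39.8% without clusters and 56.8% with at most 30% mitochondrial UMIs, and the unnamed share (45.4%) was 16.7% and 11.7%. Members above the reference in tetYAP 4W numbered 19 of 37 in endothelial-like barcodes (27% of all genes), against 12 after thinning. In unnamed barcodes they numbered 9 of 37 (3.04% of all genes), against 4 of 37 without cluster 4 (2.56%). They numbered 4 without clusters, 3 with at most 30% mitochondrial UMIs and 2 in clusters 7 and 12 alone. Col27a1 in unnamed barcodes changed sign, from -1.64 to 0.55, with at most 30% mitochondrial UMIs. The cause of the other changes was not tested. Members under 10 UMIs could not be compared at this depth.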
